A study of Oryza sativa with 26 samples.

Results

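C4, C6 and LTP110-A are 3 rice genes of the lipid transfer protein family whose transcripts were followed through anther development. They were chosen by name: each is the gene that the array's gene table assigns to 1 probe set, namely C4 (LOC9270168), C6 (LOC4350790) and LTP110-A (LOC4349601, also listed under the name LTP110-B). They are 3 of the 17905 single genes that the array reads, and 3 of the 7 lipid transfer protein genes found on it by name. Each of the 3 has exactly 1 probe set, so no second probe set could be set beside it.

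Whole anthers of Oryza sativa, field-grown in a paddy and untreated, were profiled on 26 Affymetrix Rice Genome Arrays, with no mutant or transgenic group. The groups are An1 (archesporial cells forming, 3 arrays), Mei1 (premeiotic S or G2 phase, 3), M1 (leptotene, 4), M2 (zygotene and pachytene, 3), M3 (diplotene to tetrad, 4), P1 (microspores with 1 nucleus, 3), P2 (bicellular pollen, 3) and P3 (tricellular, mature pollen, 3). Arrays of the same stage are labelled as biological replicates, and no cultivar, plant age or number of plants per sample is given. Intensities are on a scale where the 75th percentile of every array is 1, and array medians ran from 0.241 to 0.428. Values below are the mean intensity ± SD over the arrays of a stage.

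Lipid transfer proteins are small, secreted, cysteine-rich proteins that hold a lipid in a hydrophobic cavity and can carry it between membranes or to the outside of a cell. In anthers they are studied in the tapetum, the innermost wall layer, which feeds the developing microspores and supplies lipidic precursors for the pollen wall and for the orbicules on its own inner face before it degenerates. C6 is known in rice as a secreted tapetal protein needed for normal orbicules and pollen wall, C4 was isolated as a tapetum-specific transcript, and LTP110 was studied in rice as a lipid transfer protein that inhibits fungal growth in culture. The bHLH factor TDR, a regulator of tapetal development and death, is known in rice to bind the C6 promoter.

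All 3 transcripts were high at the end of meiosis and in the microspore stage. C4 was the first to reach its high level, at zygotene and pachytene, and was gone from it in bicellular pollen. Its earlier rise at leptotene was called, but the call was lost in 8 of 38 alternative analyses. That change was not separated from those of C6 and LTP110-A. C6 rose later, at diplotene to tetrad, and was still present in bicellular pollen. LTP110-A was in the upper range of its arrays from the youngest anthers, rose from pachytene to the tetrad stage, and fell in bicellular pollen. By the limma F test over the 8 stages the adjusted p was 3.83e-11 for C4, 2.3e-14 for C6 and 1.78e-11 for LTP110-A. Their stage means spanned 6.92, 6.99 and 4.54 log2 units on the log2(intensity + 1) scale. A difference counted as called where its p, adjusted by Benjamini-Hochberg over the 47799 probe sets tested, was under 0.05 and its log2 size was at least 1. By the F test 24.2% of those tested were called. Stages whose arrays do not overlap are common among all probe sets: 26.2% from Mei1 to M1, 26.2% from M1 to M2, 24.4% from M2 to M3, 17.4% from M3 to P1, 36.8% from P1 to P2 and 41.9% from P2 to P3.

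**Figure D1:**
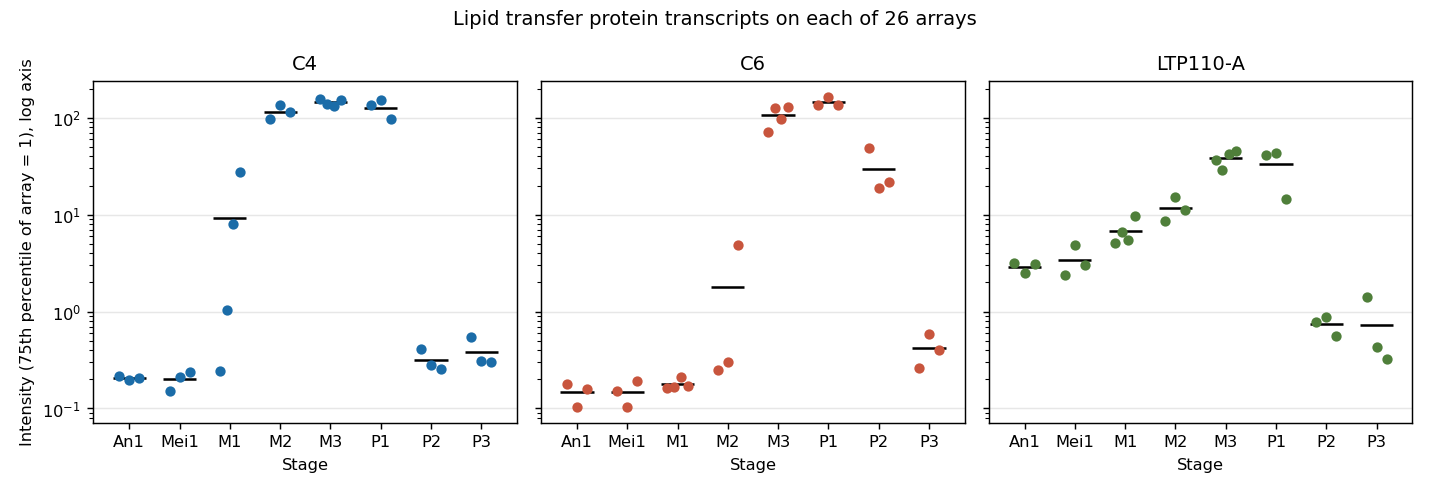
Intensity of C4, C6 and LTP110-A on each of the 26 arrays by stage (log axis, 1 point per array, black bar the stage mean). C4 is above 96 on every M2, M3 and P1 array, C6 above 70 on every M3 and P1 array, and LTP110-A above 14 on every M3 and P1 array.

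Some arrays stood apart or lay close to a neighbouring stage. Over the probe sets tested, without the genes of the lists used here, P3 replicate 1 correlated with the mean P2 profile at 0.874 and with the other P3 arrays at 0.845. Mei1 replicates 1 and 2 were slightly closer to the An1 mean (0.989 and 0.987) than to the other Mei1 arrays (0.985 each). For the other arrays with a preceding stage, the correlation with their own stage was higher than with the preceding stage. The fall of C6 into P3 and the count of other lipid transfer genes that rose there are given with and without P3 replicate 1.

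C4 was at a low level in the youngest anthers. It was 0.217, 0.196 and 0.206 on the 3 An1 arrays and 0.152, 0.212 and 0.239 on the 3 Mei1 arrays. These values lay between the 22.5th and the 41.9th percentile of all probe sets on their arrays, and the stages overlapped. The change from An1 to Mei1 was -0.01 on the log2 scale (95% interval -1.33 to 1.32), at a step where 0.0209% of probe sets were called.

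At leptotene C4 differed widely between arrays of the same stage. The 4 M1 arrays read 0.241, 1.04, 7.99 and 27.9, so that replicate 1 was at the premeiotic level and replicate 4 was above the 99th percentile of its array. The mean was 9.29 ± 12.9 (n = 4) against 0.201 ± 0.0447 (n = 3) in Mei1. Every M1 value was above every Mei1 value, with 0.241 in M1 against 0.239 in Mei1 as the closest pair. The change from Mei1 to M1 was 2.08 log2 units (SE 0.60, adjusted p = 0.0327), and 1.09% of all probe sets tested were called higher at this transition. The call was lost without M1 replicate 4 (log2 change 1.24, adjusted p = 0.0736) or M1 replicate 3 (1.80, 0.101), without Mei1 replicate 1 (2.05, 0.0887), 2 (2.08, 0.101) or 3 (2.10, 0.0926), with the replicate number as a block (1.65, 0.0765), with a pseudocount of 4 (1.18, 0.076) and with only the arrays of the 2 stages (2.08, 0.104).

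From M1 to M2 C4 reached its high level. It was 97.4, 134 and 115 on the M2 arrays, a mean of 116 ± 18.5 (n = 3), and the lowest M2 value was well above the highest M1 value. The change was 4.51 log2 units (95% interval 3.27 to 5.75, adjusted p = 3.17e-05), while 0.580% of probe sets were called higher. It was the 10th largest rise of the 47799 probe sets at this step.

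C4 was still high through meiosis and into the microspore stage. The M3 arrays read 156, 140, 131 and 152 and the P1 arrays 135, 152 and 96.2, at or above the 99.95th percentile on each array. M2, M3 and P1 overlapped, and neither the step from M2 to M3 (0.33, 95% interval -0.91 to 1.57) nor that from M3 to P1 (-0.20, -1.44 to 1.04) was called.

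In bicellular pollen C4 was back near its premeiotic level. The P2 arrays read 0.415, 0.281 and 0.254, so that the P1 mean of 128 ± 28.5 was 403 times the P2 mean of 0.317 ± 0.0861 (n = 3 each). The log2 change of -6.59 (95% interval -7.91 to -5.26, adjusted p = 4.57e-08) was the largest fall of all 47799 probe sets between P1 and P2, where 2.24% were called lower. No background level is given for these arrays, so the ratio depends on how near the low values lie to background. C4 stayed low in P3, at 0.544, 0.312 and 0.301.

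Ordered by mean, C4 was highest in M3, then P1, M2, M1, P3, P2, An1 and Mei1. No call separated the neighbours among the first 3 of these or among the last 4, although the P2 arrays lay above those of An1. The share of all probe sets without overlap between An1 and P2 was not computed. M2 and M1 differed, as given above. M1 was called higher than P3 (log2 difference 1.87, adjusted p = 0.0083, with 6.04% of probe sets called lower in P3), but their arrays overlapped, and without M1 replicate 4 the change from M1 to P3 was -1.04 (adjusted p = 0.0279). With only the arrays of those 2 stages it was not called (adjusted p = 0.0996).

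C6 stayed low for longer than C4. Over the 10 arrays of An1, Mei1 and M1 it ran from 0.103 to 0.209, with no value above percentile 36.2 of its array. On the M2 arrays it read 0.249, 0.301 and 4.81, with replicate 3 alone well above the earlier stages. The step from M1 to M2 was not called (log2 change 0.84, 95% interval 0.09 to 1.60, adjusted p = 0.149). Without M2 replicate 3 it was 0.11.

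Between pachytene and tetrad C6 rose more than any other probe set tested. It was 70.7, 127, 97.3 and 129 on the M3 arrays, a mean of 106 ± 27.7 (n = 4) against 1.79 ± 2.62 (n = 3) in M2. The groups were far apart. The change of 5.62 log2 units (95% interval 4.87 to 6.38, adjusted p = 2.61e-09) was the largest rise among the 47799 probe sets at this step, at which 1.06% were called higher. In P1 it read 135, 166 and 137, above every M3 value. The mean of 146 ± 17.3 (n = 3) was the highest of C6 in the series, but the step from M3 was not called (0.49, 95% interval -0.27 to 1.24, adjusted p = 0.678), where 0.590% of probe sets were called higher and 0.661% lower.

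C6 then went down in 2 steps. It was 48.9, 19.1 and 21.8 on the P2 arrays, a mean of 29.9 ± 16.5 (n = 3), which lay below the P1 values and above all premeiotic ones. From P1 to P2 the log2 change was -2.36 (95% interval -3.17 to -1.55, adjusted p = 7.22e-05). In P3 it was 0.262, 0.594 and 0.404. That second step of -4.33 log2 units (95% interval -5.14 to -3.52, adjusted p = 2.22e-08) was the 12th largest fall at a transition where 4.07% of probe sets were called lower. Without P3 replicate 1, the lowest of the 3, the change was -4.25 (adjusted p = 3.79e-08).

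The order of the C6 means was P1, M3, P2, M2, P3, M1, Mei1 and An1. P1 and M3 were not called as different, although their arrays did not overlap. M3 was higher than P2 (log2 difference 1.88, adjusted p = 0.000298, with 3.17% of probe sets called lower in P2) and P2 higher than M2 (3.75, adjusted p = 8.8e-08, with 4.65% called higher in P2). No call separated the lower neighbours, although the P3 arrays lay above those of M1. The share of all probe sets without overlap between M1 and P3 was not computed.

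LTP110-A was already in the upper range of its arrays before meiosis. The An1 arrays read 3.17, 2.48 and 3.10 and the Mei1 arrays 2.39, 4.87 and 3.05, all at or above the 86th percentile of their array, and the stages overlapped. It was 5.10, 6.64, 5.44 and 9.65 in M1 and 8.67, 15.2 and 11.3 in M2. The M1 values were all above the Mei1 values and overlapped with M2. Neither step was called: from Mei1 to M1 the log2 change was 0.80 (95% interval 0.18 to 1.42, adjusted p = 0.116) and from M1 to M2 it was 0.73 (0.10 to 1.35, adjusted p = 0.132).

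From M2 to M3 LTP110-A rose, and all M3 values (36.4, 28.7, 42.2 and 45.2) were above all M2 values. The means were 11.7 ± 3.30 (n = 3) and 38.1 ± 7.24 (n = 4), a log2 change of 1.63 (SE 0.30, adjusted p = 0.000826). The P1 arrays read 41.3, 43.0 and 14.6. Replicate 3 of P1 was below every M3 array and within the M2 range, and P1 was not called different from M3 (log2 change -0.33, 95% interval -0.95 to 0.30).

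Bicellular and mature pollen stages held little LTP110-A. It fell to 0.778, 0.885 and 0.560 in P2, where the mean was 0.741 ± 0.166 against 32.97 ± 15.9 in P1 (n = 3 each; log2 change -4.15, 95% interval -4.81 to -3.48, adjusted p = 1.27e-09). The P2 level was below that of the youngest anthers: An1 was called higher than P2 (log2 difference 1.17, adjusted p = 0.00593, with 4.46% of probe sets called lower in P2). The arrays did not overlap, but the share of all probe sets without overlap between An1 and P2 was not computed. With a pseudocount of 4 the change from An1 to P2 was -0.54 and was not called (adjusted p = 0.116). In P3 it read 1.42, 0.433 and 0.324, with P3 replicate 1 the highest. Ordered by mean, LTP110-A ran M3, P1, M2, M1, Mei1, An1, P2 and P3. Among these neighbours, P1 was called above M2 (log2 difference 1.31, adjusted p = 0.00454, with 1.79% called higher in P1, the arrays overlapping) and An1 above P2. The call of P1 over M2 was lost with only the arrays of those 2 stages (adjusted p = 0.0534). The other neighbours were not called.

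**Figure D2:**
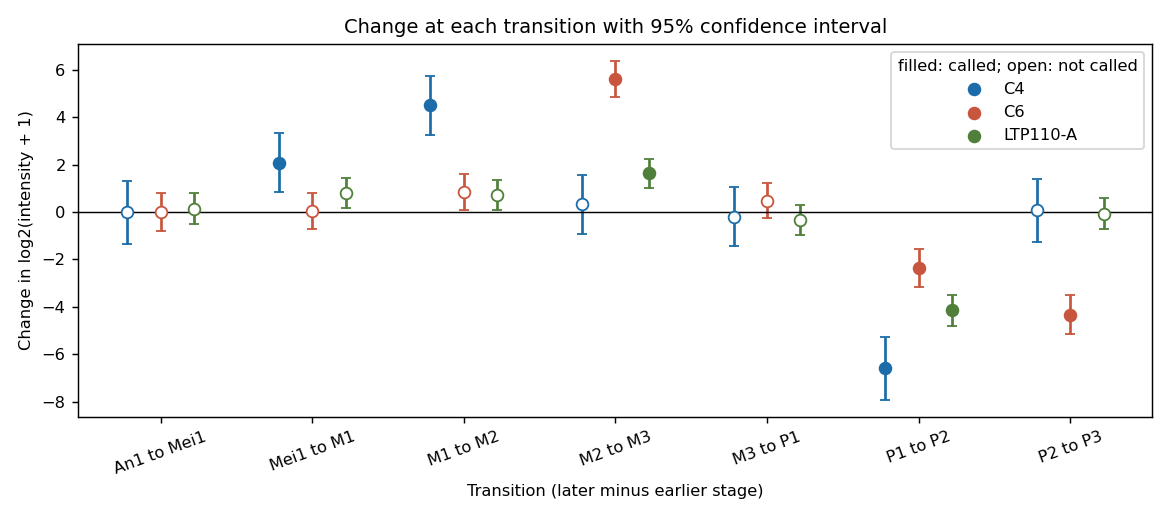
Change in log2(intensity + 1) of C4, C6 and LTP110-A at each of the 7 transitions, later minus earlier stage, with 95% confidence intervals from limma (filled points called, open points not called). The called rises are those of C4 at Mei1 to M1 and M1 to M2 and of C6 and LTP110-A at M2 to M3, and all 3 genes fall from P1 to P2.

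Whether the 3 genes changed differently was tested with the within-array log2 differences between them, which compare changes and not levels. In this fit, made with limma without an intensity trend, a difference passed at an adjusted p under 0.05. C4 rose by 3.67 log2 units more than C6 from M1 to M2 (95% interval 2.17 to 5.17, adjusted p = 0.00259), a step at which 9.15% of everything tested passed. It rose by 3.79 more than LTP110-A at the same step (2.58 to 4.99, adjusted p = 0.000243). From Mei1 to M1 the change in C4 was not separated from that in C6 (difference 2.04, 95% interval 0.54 to 3.54, adjusted p = 0.0879) or in LTP110-A (1.28, 0.07 to 2.48, adjusted p = 0.212). Without M1 replicate 1 both differences passed, at 2.71 (adjusted p = 0.0145) and 1.85 (adjusted p = 0.0302).

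At the tetrad step the order was turned. From M2 to M3 C6 rose by more than C4 (C4 minus C6 -5.29, adjusted p = 6.34e-05, with 12.9% of everything tested passing) and by 3.99 more than LTP110-A (95% interval 2.97 to 5.01, adjusted p = 2.2e-05). LTP110-A and C4 did not separate at this step (C4 minus LTP110-A -1.30, 95% interval -2.51 to -0.10, adjusted p = 0.151).

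The decline separated them again. From P1 to P2, C4 fell by more than C6 (difference -4.22, 95% interval -5.83 to -2.62, adjusted p = 0.000292, with 22.2% passing) and by more than LTP110-A (-2.44, -3.73 to -1.15, adjusted p = 0.00559). LTP110-A fell by more than C6 in its turn (C6 minus LTP110-A 1.78, 0.70 to 2.87, adjusted p = 0.0156). This last difference was 0.61 with a pseudocount of 4 (adjusted p = 0.323) and was not past the threshold there, with only the arrays of the 2 stages (1.78, 0.0775), or without P1 replicate 1 (1.501, adjusted p = 0.0873), P1 replicate 2 (1.62, 0.067) or P2 replicate 1 (1.39, 0.088). From P2 to P3 the change in C6 was lower than that in C4 (C4 minus C6 4.40, adjusted p = 0.000151) and in LTP110-A (C6 minus LTP110-A -4.27, 95% interval -5.35 to -3.18, adjusted p = 2.84e-06), where 54.7% passed. At An1 to Mei1 and at M3 to P1 none of the 3 pairs passed, where 0.0481% and 5.43% of everything tested did. The intervals were wide, from -1.62 to 1.60 for C4 minus C6 at An1 to Mei1 and from -2.19 to 0.81 for the same pair at M3 to P1.

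In some stages, arrays that differed in 1 of these genes also differed in how near their whole profile lay to the next or the preceding stage. The cases below were chosen after their values were seen. Among the M1 arrays, C4 was 0.241 in replicate 1, 1.04 in replicate 2, 7.99 in replicate 3 and 27.9 in replicate 4, and their correlations with the mean M2 profile were 0.950, 0.955, 0.957 and 0.962. TDR lay in the same order on these arrays, at 5.06, 8.43, 11.3 and 14.9, and so did CYP703A3, which hydroxylates fatty acids for the pollen wall, at 2.65, 2.91, 3.74 and 6.53. Of the 8 measured tapetum markers only these and TIP2 did so. EAT1, for example, was 10.7, 9.98, 11.6 and 4.84, lowest on replicate 4. M2 replicate 3, the 1 M2 array with C6 at 4.81, had the highest correlation of the 3 with the mean M3 profile (0.940, against 0.908 and 0.931). On that array the tapetal aspartic protease gene AP25 was 52.7, against 2.51 and 5.75 on the other M2 arrays.

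Similar cases were seen after meiosis. P1 replicate 3, with LTP110-A at 14.6, correlated with the mean P2 profile at 0.846, against 0.802 and 0.819 for the other P1 arrays. AP25 was 27.2 there against 116 and 104, and CYP703A3 4.04 against 54.7 and 44.2. P2 replicate 1, with C6 at 48.9, correlated with the mean P1 profile at 0.869, against 0.803 and 0.783. Other cases did not follow. LTP110-A was highest on Mei1 replicate 2, at 4.87, which had the lowest correlation with the mean M1 profile (0.946, against 0.959 and 0.959), and in M2 it was highest on replicate 2, at 15.2, while replicate 3 lay nearest M3. With 3 or 4 arrays in a stage these orders were described and not tested, and the part of the sampled developmental moment in the spread of C4, C6 and LTP110-A was not tested.

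**Figure D3:**
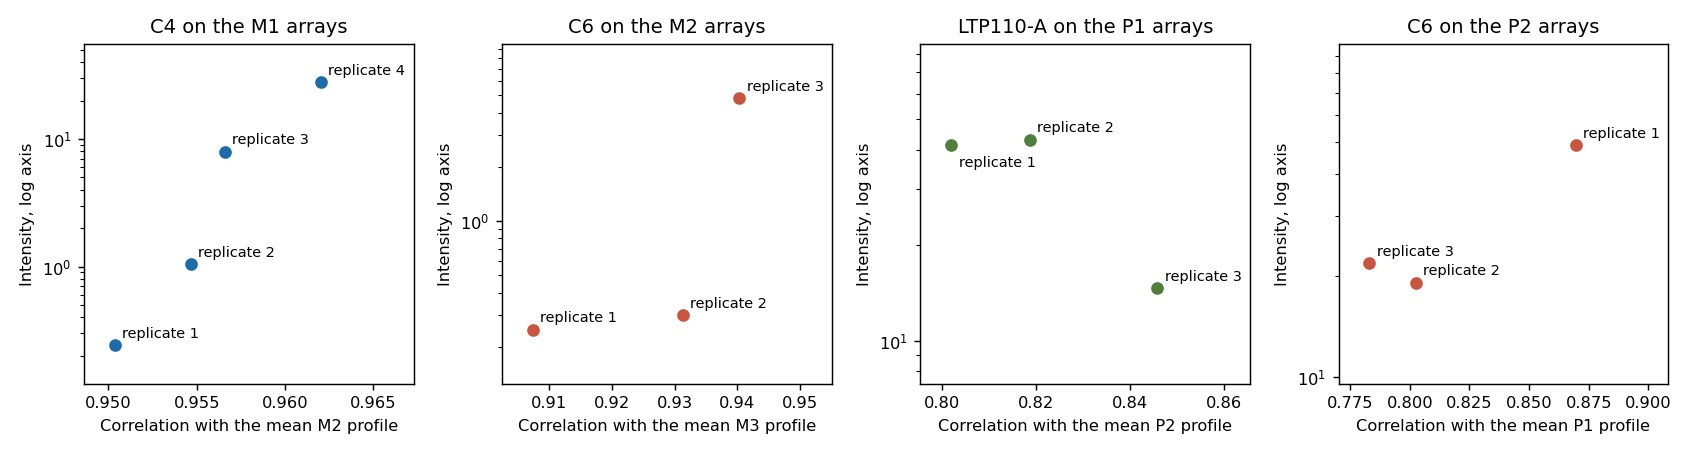
Intensity of C4 on the M1 arrays, C6 on the M2 arrays, LTP110-A on the P1 arrays and C6 on the P2 arrays (log axes) against the correlation of each array's profile with the mean profile of the stage named on the x axis. In each of these panels, chosen after the values were seen, the array nearest the other stage in profile is also nearest it in the gene shown; C4 runs from 0.241 to 27.9 over the M1 arrays.

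Regulators of the tapetum moved at the same steps in part. Of 14 names listed, 10 genes were found in the gene tables and 9 had a probe set. From Mei1 to M1, where C4 rose, TDR rose (3.55 ± 0.420, n = 3, to 9.93 ± 4.19, n = 4; log2 change 1.18, adjusted p = 0.0138) and MSP1, which encodes a receptor kinase acting early in the anther, fell (log2 change -1.03), making 1 higher and 1 lower of 9 (0.0523% of all probe sets were lower). The median change of the 9 was 0.11, against -0.03 over all probe sets. From M1 to M2, 2 rose and 3 fell (median 0.01, against 0.05), where 0.268% of all were lower. Those higher were PTC1, a PHD-finger factor needed for tapetal death (log2 change 2.40), and TDR (1.08, to 21.0 ± 3.59). Those lower were MSP1 (-1.10), TDL1A, which encodes a small ligand of MSP1 (-1.07), and the bHLH gene EAT1 (-1.45, with overlapping arrays), which acts downstream of TDR.

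At the step where C6 and LTP110-A rose, from M2 to M3, EAT1 rose from 2.96 ± 2.16 (n = 3) to 16.5 ± 5.99 (n = 4; log2 change 2.21, adjusted p = 0.000106) and TIP2, the bHLH factor also called bHLH142, fell (-1.38, adjusted p = 6.07e-05). These were 1 higher and 1 lower of 9, with a median of 0.08 against -0.04 over all probe sets, of which 0.975% were lower. TDR was near its highest level in both stages, at 21.0 and 19.9. Between P1 and P2, TDR (-1.53), EAT1 (-1.90) and MSP1 (-1.71) fell and TDL1A rose (1.05), with a median of -0.74 over the 9 against 0.01. These were 1 higher and 3 lower of 9, where 3.23% of all probe sets were higher and 2.24% lower. From P2 to P3, where C6 fell, EAT1 fell (-1.47) and the MADS-box gene MADS3 rose (1.07). That made 1 higher and 1 lower of 9 (median -0.44, against 0.12), where 4.22% of all probe sets were higher and 4.07% lower.

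Of 19 names on the list of tapetal lipid and pollen wall genes 2 were found in the gene tables, CYP703A3 and RTS. Both had a probe set. The other names had no entry there, so whether the array reads those genes was not established. CYP703A3 rose at both early steps at which C4 rose (log2 changes 1.95, adjusted p = 0.0165, and 3.11, adjusted p = 0.000293) and reached 92.4 ± 8.69 (n = 4) in M3. It fell already from M3 to P1 (-2.0, adjusted p = 0.018), a step at which C4 was not called, and again from P1 to P2 (-4.03, adjusted p = 4.38e-06). RTS, a tapetal gene needed for male fertility, was low up to M3 (0.177 ± 0.0874, n = 4). It rose to 85.8 ± 76.6 in P1 and 144 ± 33.5 in P2 (n = 3 each) and fell to 0.766 ± 0.109 in P3. In P2, C6 stood at 20.5% of its own highest stage mean and RTS was at its highest, while C4, LTP110-A and CYP703A3 stood at 0.219%, 1.94% and 0.472%.

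**Figure D4:**
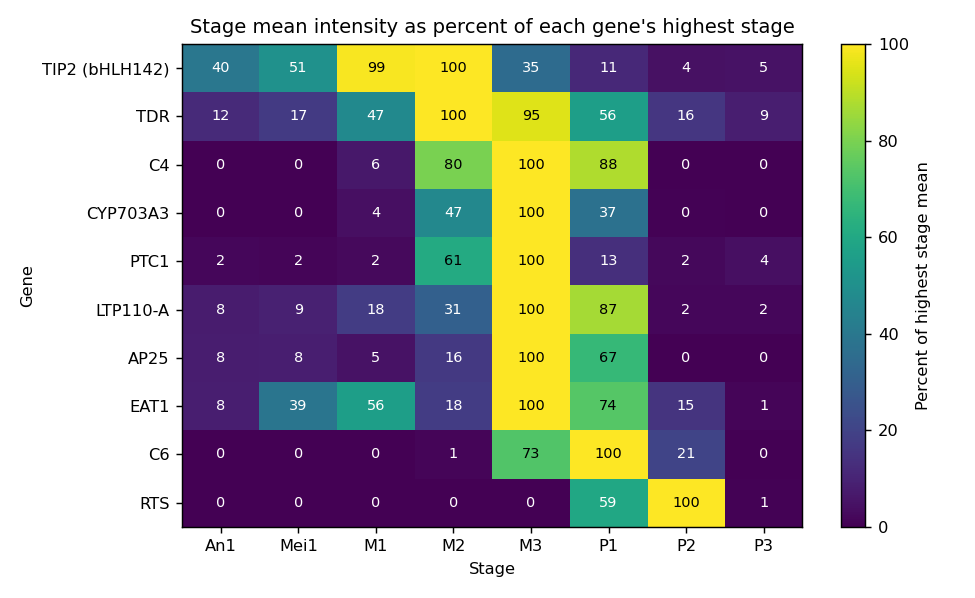
Stage mean intensity of C4, C6, LTP110-A and 7 tapetal genes as a percentage of each gene's own highest stage mean (colour and printed value). C4 and CYP703A3 rise in M1 and M2, C6 is at 72.8% in M3 and highest in P1, and RTS is highest in P2.

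These are values of whole anthers, in which fewer cells of a type and less RNA per cell cannot be told apart. Summed marker transcripts of several cell types changed over the same stages. The summed intensity of 8 measured tapetum markers of 11 listed ran from 19.8 to 23.2 in An1 and from 234 to 306 in M3. It ran from 205 to 277 in P1, from 127 to 193 in P2 and from 2.77 to 6.13 in P3. RTS made up nearly all of the P2 sums, at 183, 129 and 121 on the P2 arrays. From P1 to P2, 5 of the 8 were called lower and 0 higher by limma, against 2.24% and 3.23% of all probe sets. The 2 measured mature pollen markers of 9, ADF1 and EXPB10, summed to at most 0.767 on any array up to P1, to 30.2 to 152 in P2 and to 97.5 to 293 in P3. The 5 measured germ-cell markers of 9, MEL1 among them, summed to between 52.0 and 57.4 in An1 and between 4.67 and 5.29 in P1. MEL1 made up most of the An1 sums, with a mean of 45.8 there and 0.524 in P1. PAIR2, MER3 and PAIR1 also had lower means in P1 than in An1. DMC1A did not, at 0.632 in An1 and 0.686 in P1. The 2 measured green-tissue markers of 5 summed to values from 28.6 to 88.1 in M3 and from 1.499 to 2.74 in P3. No value in the table is 0. The part of these changes in the lipid transfer results was not tested.

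Of the other 4 lipid transfer genes found by name on the array, 3 had their highest mean in mature pollen. The fourth, LTP-2, was not called by the F test. Of the 4, 0 were called at any transition up to P1, by limma with adjustment. Few probe sets were called there at all: 0.0209% in either direction at An1 to Mei1. At Mei1 to M1, M1 to M2, M2 to M3 and M3 to P1, 1.09%, 0.580%, 1.06% and 0.590% were called higher. Called lower were 0.0523%, 0.268%, 0.975% and 0.661%, so 0 of 4 does not set these genes apart. The mean of LTP rose from 0.123 in M1 to 1.96 in P1, and that of LTPL1 from 3.66 in An1 to 11.5 in M3. LTP-2 was lower in M3 (0.187) than in M1 (0.402). At an unadjusted p under 0.05 the number of the 4 was 0 at An1 to Mei1, 1 at Mei1 to M1, 1 at M1 to M2, 0 at M2 to M3 and 2 at M3 to P1. The share of all probe sets under that unadjusted p was not computed, so these numbers cannot be set against it. At P1 to P2, 1 rose and 1 fell (median -0.18, against 0.01 over all probe sets; 3.23% of all were called higher and 2.24% lower). From P2 to P3, 3 of 4 rose and 0 fell (median 1.32, against 0.12; 4.22% called higher). Without P3 replicate 1 the number that rose was 2 of 4. They were taken as every gene whose symbol or synonym begins with LTP or nsLTP. Only 2432 of the 17905 single genes that the array reads have a symbol, so family members without such a name were not included. A further gene so named, LTP2-A, had no probe set assigned.

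LTP (LOC4351318) had stage means between 0.107 and 0.150 up to leptotene and was highest in mature pollen. It read 1.58, 2.80 and 1.496 in P1, 5.42, 9.24 and 8.74 in P2 and 11.7, 23.4 and 25.1 in P3, with no overlap between these stages. The log2 changes were 1.57 (adjusted p = 4.46e-06) from P1 to P2 and 1.22 (adjusted p = 8.3e-05) from P2 to P3. The suffix of its probe set marks probes that can bind other transcripts.

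LTPL1 (LOC4332993) had no array value below 2.46. It was 3.66 ± 0.386 in An1 and 10.04 ± 3.88 in P1, fell to 3.88 ± 1.398 in P2 (log2 change -1.14, adjusted p = 0.00428) and rose to 20.7 ± 1.504 in P3 (log2 change 2.19, adjusted p = 3.13e-06), with 3 arrays each. The fall was not called without P1 replicate 1, P1 replicate 2 or P2 replicate 1, when 0 of the 4 were lower.

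LTP2-B (LOC4351317), which lies next to LTP in the gene table, was at most 0.714 on any array up to P2. It read 6.45, 1.11 and 2.39 in P3 (log2 change 1.42, adjusted p = 7.4e-05). Its highest P3 value was on P3 replicate 1. Of its other probe sets, 1 went from 0.273 to 3.69 between P2 and P3 and 1 only from 0.147 to 0.288. LTP-2 (LOC4331362), which encodes a lipid transfer protein of the smaller, second type, was not called over the 8 stages (adjusted p = 0.241), with stage means between 0.187 and 1.12. Its highest mean, in P1, rested on replicate 3, at 2.81 against 0.125 and 0.432.

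**Figure D5:**
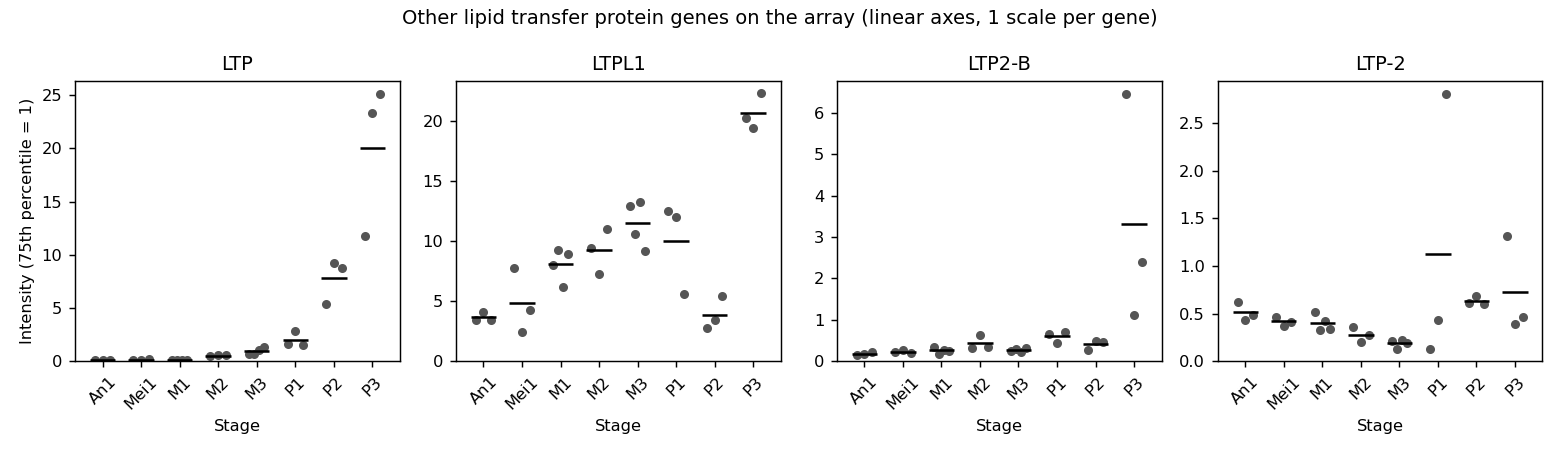
Intensity of the 4 other lipid transfer protein genes found by name, on each array by stage (linear axes with a separate scale for each gene, black bars the stage means). LTP, LTPL1 and LTP2-B are highest in P3, at means of 20.1, 20.7 and 3.32. LTP-2 is highest in P1, at a mean of 1.12 over arrays at 0.125, 0.432 and 2.81.

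Genes with the profile most like each of the 3 were found by Pearson correlation of the 8 stage means of log2(intensity + 1), over 1540 probe sets with a gene symbol, of other genes, that spanned at least 1 log2 unit. All profiles share the same arrays and the correlations are descriptive. For C4 they were CYP703A3 (r = 0.980), the zinc transporter gene OsZIP4 (0.946), the aquaporin-family gene OsSIP1;1 (0.942), the UDP-glucose epimerase gene OsUGE-1 (0.941) and the potassium transporter gene HAK13 (0.936). CYP703A3 went from 0.239 in Mei1 to 43.2 in M2, 92.4 in M3 and 0.436 in P2, while OsZIP4 did not exceed a stage mean of 1.36.

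For C6 the 5 were HIRL2 (r = 0.979), the glycolytic gene GAPC (0.971), the chalcone synthase gene CHS (0.965), the auxin conjugate hydrolase gene ILL5 (0.959) and the MADS-box gene MADS55 (0.958). CHS, an enzyme gene of flavonoid synthesis, had a mean of 0.221 in M1, 4.10 in M2, 34.5 in M3, 30.1 in P1, 4.61 in P2 and 1.58 in P3. GAPC moved between 28.7 and 62.4 only. For LTP110-A they were the ABC transporter gene ABCG36 (0.991), the heat shock protein gene HSP81-1 (0.977), the ketoacyl-CoA synthase gene KCS20 (0.971), the potassium transporter gene HAK12 (0.966) and AGPR (0.954). KCS20, of very-long-chain fatty acid synthesis, went from 7.99 in M2 to 57.4 in M3 and 51.2 in P1 and to 0.440 in P2. Over the 26 arrays in place of the 8 stage means, 5, 4 and 3 of the 5 genes were named again for C4, C6 and LTP110-A. With a pseudocount of 4 the numbers were 3, 3 and 2. ABCG36 was named again in neither, and HIRL2 was not named with the pseudocount of 4.

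Among the 3 themselves, C4 and LTP110-A correlated at 0.916 over the 8 stage means, C4 and C6 at 0.612, and C6 and LTP110-A at 0.589. Over the deviations of the 26 arrays from their stage means the same pairs gave 0.39, 0.03 and -0.01. Deviations of C4 correlated with those of TDR at 0.60, those of LTP110-A with those of CYP703A3 at 0.73, and those of C6 with those of AP25 at 0.71. These were the highest values of each among the tapetal genes compared. The lowest were -0.26 for C4 with EAT1, -0.38 for LTP110-A with RTS and -0.02 for C6 with TIP2. C6 with TDR gave 0.06. The arrays picked out above enter these values. C4 ran from 0.241 to 27.9 within M1. M2 replicate 3 was the highest M2 array in C6 and AP25. P1 replicate 3 was the lowest P1 array in LTP110-A and CYP703A3. The correlations thus repeat those cases in part, and they were not recomputed without those arrays. The 26 arrays share scaling and stage, and no p is given for these values.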

How the data were processed

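Values are those of the deposited series table: intensity on a linear scale for 57381 probe sets, which the authors divided by each array's 75th percentile (it is 1 on all 26 arrays). The submitters' processing notes name GCOS 1.3 without its role; background and detection settings are not given in the sources used here. 187 control probe sets were left out. Names came from the array's gene table and the RefSeq gene table of assembly ASM3414082v1, used for names and gene order alone; of the probe sets, 22436 name 1 gene and 95 several. Genes with several probe sets were read by the one with the highest mean.

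Values were analysed as log2(intensity + 1), keeping 47799 of 57194 probe sets (83.6%) whose mean in 1 or more stages exceeded percentile 40 of the pooled log2 values; all 7 lipid transfer genes passed. One limma 3.58.1 fit (R 4.3.3) with stage means and an intensity trend used all 26 arrays; it was tested on simulated data. Tests were two-sided, with Benjamini-Hochberg adjustment over all probe sets. For differences between the genes, 3 rows of within-array differences were added and no trend was used. Tables and figures used Python 3.11.15, pandas 2.3.3 and matplotlib 3.10.9. Named genes were the 3 genes, the 5 most like each, up to 4 called genes per list at steps where 1 of the 3 was called, and TDR, EAT1, PTC1, CYP703A3 and RTS; AP25 and LTP-2 were added after their values were seen. Genes and lists were chosen with earlier results of these data known. Nothing says that replicates came from separate plants, so p-values measure the spread between these samples; the number of arrays limits the precision. No sequences were available to print.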

Additional observations from a re-analysis of the deposited data

Results flagged for a closer look

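In the stages with 4 arrays, each gene of the lists and AP25 was examined for an array far from the other 3 by Dixon's criterion. Of 38 such groups 4 had one, and chance gives about 1 in 20. C6 was 0.209 on M1 replicate 3, against 0.164 to 0.170 on the other M1 arrays, a difference at the low end of the scale. RTS was 0.308 on M3 replicate 4, against 0.126 to 0.144 on the others. AP25 was 107 on M3 replicate 3, against 128 to 130. API5 was 12.9 on M1 replicate 4, against 9.71 to 10.2. C4 in M1, which ran from 0.241 to 27.9, was spread too evenly to meet the criterion.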

How the results depend on the processing

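Each result was recomputed under up to 38 alternatives. The F tests of the 3 genes kept their calls in all of them, and of the 21 transitions 19 kept their side of the threshold. The rise of C4 from Mei1 to M1 was not called with a pseudocount of 4 (log2 change 1.18), with the replicate block (1.65), with only these stages' arrays (2.08) or without any of the 5 arrays given above; over all 26 arrays left out in turn it ran from 1.24 to 2.75. C6 from M1 to M2 was called without M2 replicate 2 and P3 replicate 1 together (1.19), an alternative added after seeing the data. The other transitions called kept direction and call; of those not called, 9 changed sign somewhere. Of the 21 differences between genes, 15 were unchanged. C4 minus C6 from Mei1 to M1 passed with the pseudocount at the 20th percentile, 0.149 (3.06), and with array weights (1.93). Over the arrays left out in turn it ran from 1.20 to 2.71, and C4 minus LTP110-A there from 0.61 to 1.85; each passed only at the highest value, without M1 replicate 1. With only the 2 stages' arrays, C4 minus C6 (3.67) and C4 minus LTP110-A (3.79) from M1 to M2 and C6 minus LTP110-A from P1 to P2 (1.78) no longer passed, and C4 minus LTP110-A from M2 to M3 did (-1.30). C6 minus LTP110-A from P1 to P2 was also lost with a pseudocount of 4 (0.61) and without any of 3 arrays given above; over the arrays left out in turn it ran from 1.39 to 2.23. Of the other lipid transfer genes, 0 rose and 0 fell from P1 to P2 and 1 rose from P2 to P3 with a pseudocount of 4; with only the 2 stages' arrays 0 fell and 1 rose at those steps. With the 0.149 pseudocount 1 rose from M1 to M2. Without 1 array, 0 to 1 rose from Mei1 to M1 and 0 to 1 fell from P1 to P2. Among other neighbours in level, the calls of LTP110-A in An1 over P2 (pseudocount of 4), of P1 over M2 and of C4 in M1 over P3 (2 stages' arrays) were lost.

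Same-numbered arrays did not pair: the median correlation of their deviations from the stage means was -0.03, -0.01 and 0.01 for numbers 1, 2 and 3, and -0.13 for the 1 pair numbered 4. The replicate block changed no other call of those recomputed. Spike-in scaling and median centring moved the median of all probe sets by over 0.1 at late steps (from 0.12 to -0.03 and 0.00 at P2 to P3) and ended no call of the 3 genes. The cause of these changes was not tested.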
